A study of Mus musculus with 24 samples.

Results

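A set of 614 genes was chosen in the mouse kidney and liver for repair of cisplatin damage mainly on the strand that is not transcribed. Repair reads of most genes come from the transcribed strand (TS), the template that RNA polymerase reads. In these 614 the non-transcribed strand (NTS), which carries the coding sequence, gave at least 2 times as many reads as the TS. The members were chosen from the 25239 rows of the full gene tables, of which 24357 name a gene symbol. A row became a member if it named a symbol, overlapped no row of the opposite strand, had at least 500 reads on both strands together over the 24 libraries, and had NTS reads of at least 2 times its TS reads. The overlap condition left out rows that lie over a listed gene of the other strand. Of 15027 rows that met the first 3 conditions, 614 met the last, and the other 14413 served as comparison rows. The 614 rows name 608 symbols, because a few genes have more than 1 row; 29 members overlap another row of their own strand and share reads with it. Members were selected on the strand ratio itself, so that ratio is described below with no test.

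The libraries came from wild-type female mice of the C57BL/6 strain, aged 6 months and held under a cycle of 12 h light and 12 h dark. Cisplatin was injected into the peritoneum at 10 mg per kg, and tissues were taken 2 hours later, with each library labelled by zeitgeber time (ZT, hours after lights on) 0, 4, 8, 12, 16 or 20. The sources used here leave unclear if that time is of injection or of collection, so peak hours below are on the labelled scale. Kidney and liver each have 2 libraries at every time, 12 per tissue. All libraries share the drug and the genotype, and untreated animals were not analysed here. The tissues were lysed whole, so fewer cells of a type and less repair per cell cannot be told apart. It is not stated if the 2 libraries of each tissue and time are from different animals. The p-values then reflect library-to-library spread alone, which may be technical. The measure is XR-seq, in which short oligomers cut out of the genome by excision repair are captured with the repair factor TFIIH and sequenced. Levels are given as CPM as edgeR computes it, reads scaled to the TMM-adjusted total of the strand counted, so that an NTS level and a TS level have different denominators.

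Cisplatin joins neighbouring bases of 1 DNA strand, most often a pair of adjacent guanines, and nucleotide excision repair removes the joined bases in a short oligomer. Where RNA polymerase stalls at such a lesion, transcription-coupled repair clears the template strand faster than the rest of the genome, while global repair acts on both strands. Transcription in the opposite direction through a gene would use the coding strand as its template, so the oligomers of that repair would be counted as NTS reads of the gene.

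The genes with the strongest excess include several with short rows, and the sequences around the starts of 3 of them are shown because they carry the cisplatin target, GG, in different proportions on their strands. Each window is the RefSeq promoter entry of GRCm38.p6, 250 bases before to 50 bases after the start, printed 5′ to 3′ on the coding strand with every run of adjacent G in capitals. Tmem190 (chr7:4782690-4782989, plus strand) has 25 GG steps on the coding strand and 31 on the template strand. Lhb (chr7:45420696-45420995, plus strand) has 24 and 42. Nppa (chr4:148000472-148000771, plus strand) has 39 and 12.
Tmem190: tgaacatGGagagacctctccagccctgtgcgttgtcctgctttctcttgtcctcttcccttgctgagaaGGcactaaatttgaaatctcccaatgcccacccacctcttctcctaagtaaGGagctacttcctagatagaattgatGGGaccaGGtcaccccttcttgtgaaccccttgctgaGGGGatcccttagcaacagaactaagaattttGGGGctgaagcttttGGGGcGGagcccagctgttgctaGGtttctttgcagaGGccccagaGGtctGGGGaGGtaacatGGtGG
Lhb: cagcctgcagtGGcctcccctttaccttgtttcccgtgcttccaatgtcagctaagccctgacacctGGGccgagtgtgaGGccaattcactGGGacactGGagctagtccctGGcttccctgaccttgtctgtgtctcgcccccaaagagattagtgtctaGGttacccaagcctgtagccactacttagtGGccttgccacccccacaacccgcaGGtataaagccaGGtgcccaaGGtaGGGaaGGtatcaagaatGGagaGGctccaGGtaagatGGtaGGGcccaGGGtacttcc
Nppa: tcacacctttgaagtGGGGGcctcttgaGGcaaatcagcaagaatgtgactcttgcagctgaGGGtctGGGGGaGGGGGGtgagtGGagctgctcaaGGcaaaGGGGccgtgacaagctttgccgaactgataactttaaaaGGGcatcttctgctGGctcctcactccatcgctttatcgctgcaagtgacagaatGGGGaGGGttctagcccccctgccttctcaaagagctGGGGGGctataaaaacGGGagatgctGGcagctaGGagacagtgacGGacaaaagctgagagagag

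Over these windows the coding strand of Nppa was richer in GG than its template and that of Lhb was poorer. Their NTS to TS ratios were 37.7 and 38.5, that of Nppa from only 16 TS reads. A link between GG and the ratio was not tested. Promoter entries matched 448 of the 614 members, with a median of 25 GG steps on the coding strand and 24.5 on the template strand. The 10860 matched comparison rows had medians of 28 and 27. More GG on the coding strand than on the template was found in 47.5% of members and 52.5% of comparison rows. Members had a median of 6 CG steps in the window and comparison rows 18, against 7 over all 32851 promoters of the table. The letters TATAAA, searched on both strands, were present in 12.7% of members, 8.57% of comparison rows and 13.6% of all promoters. How reads that match several places were handled is not given in the sources used here. These windows cover only the first 50 bases of each row, so GG over the rest of the genes was not analysed here.

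Library depth ran from 6334958 to 24236776 TS reads and from 975978 to 3948748 NTS reads in kidney, and from 9538537 to 21050661 and from 1333813 to 2940892 in liver. Marker genes fixed for each tissue matched the labels: all 8 hepatocyte markers had fewer TS reads in kidney than in liver, and all 8 kidney tubule markers had more (edgeR's quasi-likelihood test, Benjamini-Hochberg adjusted p under 0.05). Of the 4 markers of each other list, none of the endothelial markers, 1 higher and 1 lower of the immune markers and 3 higher of the podocyte markers passed. Liver ZT0 replicate 1 stood apart from the other 11 liver libraries. Its hepatocyte markers summed to 328 CPM against 467 to 534, its endothelial markers 241 against 81.9 to 126, and its podocyte list 74.97 against 26.7 to 38.3. Its members gave 4.13 NTS reads per TS read against 5.10 to 6.13 in the other 11, and the counts of called members, the neighbour pairs and the liver rhythms are given with and without it.

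Taken as a set, the members held 2736324 NTS reads and 611444 TS reads. The median member had an NTS to TS ratio of 4.13, against 0.132 in the comparison rows. The ratio was 10 or more in 122 members and 20 or more in 41. Members had little repair on their own template: their median was 42.3 TS reads per kb of row over all libraries, against 600.0 in comparison rows. On the coding strand the order turned, with 250 NTS reads per kb in the median member and 52.6 in the median comparison row. The median member row was 10.99 kb long, against 23.4 kb. RefSeq lists 547 of the members as protein coding, 57 as long non-coding RNA and 8 as transcribed pseudogenes.

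**Figure D1:**
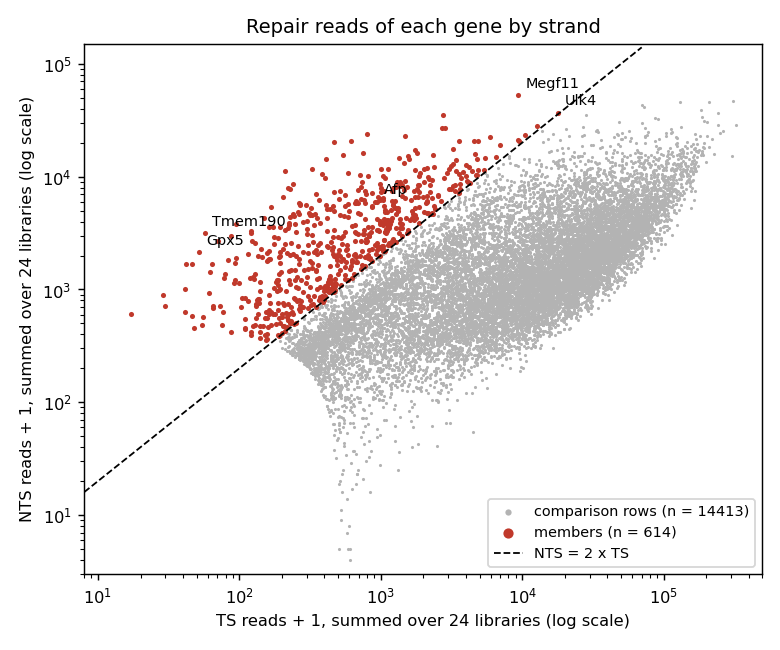
Reads of each row on the TS (x axis) and NTS (y axis), plus 1, summed over 24 libraries, both on log scales; red points are the 614 members and grey points the 14413 comparison rows. Members lie above the dashed line at NTS = 2 times TS by the rule, and most comparison rows lie far below it.

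The excess was present in most libraries one by one. NTS reads exceeded TS reads in all 24 libraries for 479 members, and the 2-fold excess itself was present in all 24 for 269. It held in the sum of the 12 kidney libraries for 524 members, in the liver sum for 545, and in both for 455. In kidney the members' summed NTS reads were 3.802 ± 0.410 times their TS reads (SD, n = 12 libraries), and in liver 5.54 ± 0.562 times (5.67 ± 0.362 over 11 libraries, without ZT0 replicate 1). Members took 4.64% ± 0.422 of all NTS reads in kidney and 5.29% ± 0.262 in liver (SD, n = 12 each). The tissue ranges of this share overlapped, at 3.85% to 5.20% in kidney and 4.81% to 5.65% in liver.

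Several of the 12 members with the largest ratios encode products best known from other organs, and all 12 had few TS reads, from 16 to 467. Tmem190, a small membrane protein, led with 3177 NTS and 56 TS reads, a ratio of 56.7 (chromosome 7, 4782940 to 4784340, plus strand, mm10). In kidney its NTS level was lowest at 30.2, median 49.4 and highest at 76.2 CPM, and in liver 44.8, 72.2 and 103. The ranges of the tissues overlapped, and the kidney mean was lower by 0.51 on the log2 scale (SE 0.11, edgeR adjusted p = 1.4e-04). Tm4sf20 followed with a ratio of 53.8, then Itgb2l, an integrin subunit relative, with 43.5. Gpx5, a glutathione peroxidase of the epididymis, had 42.3 and Gpr151, an orphan receptor of the brain, 41.1. Uts2, which encodes the vasoactive peptide urotensin 2, had 40.8, and Lhb, the pituitary luteinizing hormone beta subunit, 38.5. Nppa, the atrial natriuretic peptide of heart, had 37.7, Camp, the cathelicidin antimicrobial peptide, 37.5, Prss48 36.1, Heatr9 36.0 and Cst7, an inhibitor of cysteine proteases in immune cells, 35.9. TS reads were so few that these ratios are loose: Nppa rested on 16 TS reads and Gpr151 on 41. Gpx5 differed from the other 11 in that its ratio was 81.3 in the liver sum and 1.68, under the threshold, in the kidney sum.

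At 10 of these 12 genes a gene of the opposite strand ended close to the member's own 3′ end, so that its transcription runs toward the member. For Lhb it was Ruvbl2, 43 bp away, a subunit of chromatin remodelling complexes with 67.5 ± 4.20 TS CPM in kidney and 68.8 ± 4.55 in liver (SD, n = 12 each). For Itgb2l it was Igsf5 at 176 bp and for Tmem190 it was Tmem238 at 444 bp. The clock gene Per3 ended 1844 bp past Uts2, and Clcn6, a chloride transporter, 2184 bp past Nppa. Apmap lay 4136 bp from Cst7, Mff, a factor of mitochondrial fission, 4259 bp from Tm4sf20, Nme6 4415 bp from Camp and Taf15 4938 bp from Heatr9. The 2 others were Gpx5, whose nearest such gene was 91705 bp away, and Prss48, at 339339 bp.

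The same arrangement, called tail to tail here, was common over the whole set. The gap from a member's 3′ end to the nearest opposite-strand row beyond it had a median of 4256.5 bp, against 42130 bp in comparison rows. It was under 10 kb for 417 members (67.9%) and 27.8% of comparison rows, and under 1 kb for 132 members (21.5%) and 7.29%. Past the 5′ end, where the genes stand head to head, the medians were 49898 bp in members and 53623 bp in comparison rows, and 20.2% of members and 22.2% of comparison rows had such a row within 10 kb. Read the other way, members made up 11.2% of eligible rows with a tail neighbour under 1 kb away, 9.68% at 1 to 5 kb, 7.28% at 5 to 10 kb, 3.003% at 10 to 50 kb and 1.23% at 50 kb or more. Neighbours within 10 kb past a member's tail had a median of 1023 TS reads per kb, against 693 past the tail of comparison rows. Distances have no replicates, so no test was made.

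**Figure D2:**
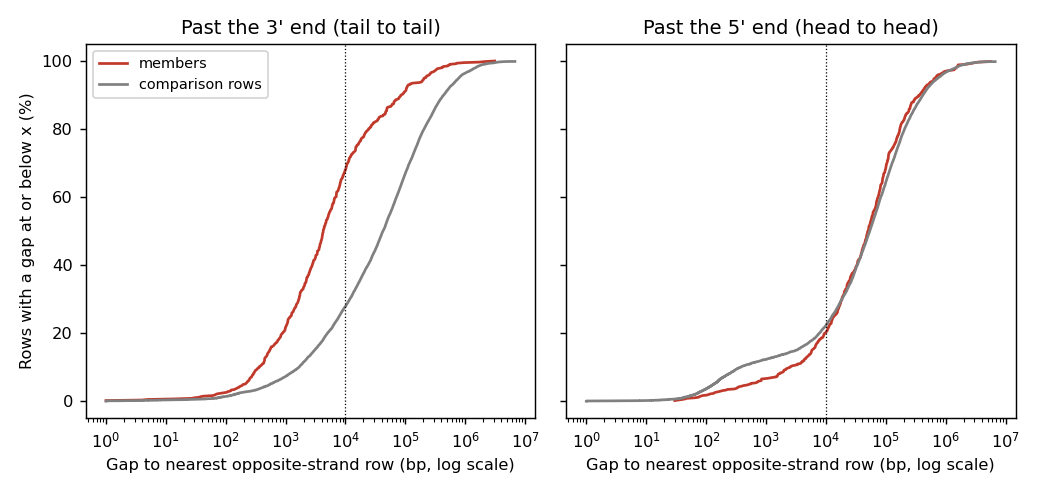
Cumulative percentage of rows (y axis) by the gap in bp, on a log scale, to the nearest opposite-strand row past the 3′ end (left) and past the 5′ end (right), for members in red and comparison rows in grey; the dotted line marks 10 kb. At that line 67.9% of members and 27.8% of comparison rows are counted on the left, 20.2% and 22.2% on the right.

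Among the smallest tail gaps were those of Tsnaxip1, next to Cenpt at 1 bp, Ccdc153, next to Pdzd3 at 5 bp, Art5, next to an unnamed row at 14 bp, Foxh1, next to Kifc2 at 27 bp, and Fndc8, next to Nle1 at 30 bp. The pooled ratios of these 5 members ran from 2.25 in Foxh1, a partner of SMAD proteins, to 9.25 in Fndc8. Within the set, the median ratio was 4.51 for tail gaps under 1 kb, 4.52 at 1 to 5 kb, 4.08 at 5 to 10 kb, 3.53 at 10 to 50 kb and 3.71 at 50 kb or more.

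RefSeq, a different annotation from that of the tables, placed a gene of the opposite strand over more than 50% of the row for 48 members (7.82%) and 281 comparison rows (1.95%). Among the members without a tail neighbour within 10 kb there were 31 of these. Prss48 lay wholly within Sh3d19, the long non-coding 4921511C10Rik within Rapgef2, Gm13546 within Cytip and 1700007F19Rik within Gm40056. Uts2 lay wholly within the RefSeq span of Per3, so the 1844 bp gap in the tables is not a gap in RefSeq. Of the other members with the largest ratios and a close tail neighbour, Itgb2l was covered over 81.8% by Gm32358 of the opposite strand. Heatr9 was covered over 100% by Gm32650. Strand was known for 28097 of 49997 RefSeq genes, so these counts are lower bounds. After this, 26 members had a smaller RefSeq overlap, 12 only a head-to-head row within 10 kb, and 128 (20.8%) had none of these.

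Reads between genes were listed for kidney in a table drawn down to a lower depth. Regions starting 2 kb beyond the row on both sides were listed for 197 members, and the 3′ side had a median of 102 reads per kb against 23.3 on the 5′ side. The 3′ side was higher in 171 of the 197 (86.8%) and in 58.8% of 7139 comparison rows. The side also differed among the 130 members with no tail neighbour within 10 kb, where medians were 71.6 and 21.7 reads per kb and the 3′ side was higher in 82.3%. Comparison rows of the same kind had 56.4%. Both lines that the table gives for a region were summed, since nothing labels them by strand.

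The 8 members with the most reads had rows of 14.2 to 324 kb and pooled ratios of 2.06 to 12.8. Megf11, a cell surface protein of neuron spacing, had 53105 NTS and 9385 TS reads over 324 kb, and Ulk4, a pseudokinase, 36902 and 17910 over 313 kb. Rab11a, a GTPase of recycling endosomes, ended 6094 bp past Megf11, and Ctnnb1, which encodes beta-catenin, 3946 bp past Ulk4. 4921511C10Rik had 35113 NTS reads, Loxl2, a matrix crosslinking enzyme, 27997, Igf2bp3, an RNA-binding protein, 26896, Ttc39a 23533, Plekhb1 21276 and 1 of the Agbl5 rows 20910. In NTS reads Megf11 ranged from 732 to 1106 CPM in kidney with a median of 904, and from 977 to 1198 with a median of 1103 in liver, with overlapping ranges. Ulk4 ran the other way, with 577, 812 and 875 in kidney (lowest, median, highest) and 513, 547 and 682 in liver. In the kidney sum the ratio was under the threshold for Ulk4 at 1.63, Loxl2 at 1.62 and the Agbl5 row at 1.93. In the liver sum it was under the threshold for Plekhb1 at 1.92.

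Just inside the threshold stood Sh2d1b2, Padi6 and Rec8, with ratios of 2.005, 2.005 and 2.005, and just outside it Art4 at 1.997, Gm6792 at 1.996 and Adgrg7 at 1.992. Padi6 and Rec8 had a tail neighbour within 10 kb, Rcc2 at 4134 bp and Ipo4 at 233 bp, and so did Art4.

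The rule summed both tissues, so a member could enter through the tissue where its NTS reads were high. This holds for the 159 members with a ratio under 2 in 1 tissue, while the other 455 met the ratio in both. NTS reads were scaled to all NTS reads of a library, so a difference is relative to the other genes. Of the 455, 103 were higher in kidney and 256 lower (edgeR's quasi-likelihood test, adjusted p under 0.05), and their median was lower in kidney by 0.27 on the log2 scale. Over all 19124 rows tested, 33.4% were higher and 32.6% lower, 66.0% either way, with a median of 0.01. The 159 had 75 higher and 73 lower, which is given as a description. Over the 614 members the counts were 178 and 329, with a median of -0.25. This lean depended on the scaling: with 1 library size for both strands, 228 members were higher and 248 lower, the median member stood at -0.04 and all rows at 0.23. Without liver ZT0 replicate 1, 177 members were higher and 333 lower.

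The extremes between tissues come mainly from members that met the ratio in only 1 tissue, and their values are a description. Members highest in kidney were Gm906, by 6.31 (SE 0.26) on the log2 scale, Gm13546 by 5.71, Gm8765 by 5.32, B3gat1 by 5.31, Hrnr by 4.998 and Rnf224 by 4.78, and the NTS to TS ratio of all 6 was under 2 in liver. Gm906 and Gm8765 are uncharacterised genes of similar length on chromosome 13, and Hrnr, which encodes hornerin, is a gene of the outer skin. Hrnr had 14.0 to 47.5 NTS CPM in the 12 kidney libraries (median 29.0) and 0 to 1.495 in liver (median 0.813). Rptn, the related gene repetin on the same chromosome, which was picked after its values were seen, had 16.2 to 39.1 (median 21.0) and 0 to 3.65 (median 0.760). The kidney and liver ranges did not overlap for either gene. Gm13546 had 40.6 to 103 in kidney and 0.455 to 2.74 in liver, again with no overlap.

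Members lowest in kidney were Mup21, by 6.70 (SE 0.35), Gm5122 by 6.53, Gpx5 by 5.90, Rgr by 5.50, Sftpd by 4.93 and Pnpla5 by 4.55, and 5 of these 6 had a ratio under 2 in kidney. Sftpd had 2.24 there and 28.5 in liver. Mup21 belongs to the major urinary protein family, whose copies are so alike that reads may be shared among them. Gpx5 had 49.3 to 112 NTS CPM in liver (median 87.6) and 0 to 2.69 in kidney (median 1.42). Its TS level was at most 0.268 in any of the 24 libraries. Rgr, an opsin-family protein of retina, had 119 to 230 in liver and 1.84 to 14.3 in kidney. Sftpd, the lung surfactant protein D, had 129 to 246 in liver and 3.02 to 18.4 in kidney. For these 3 genes every liver library lay above every kidney library.

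The members' own transcribed strand gave other counts. TS reads passed the filter for 568 members, of which 336 were higher in kidney and 72 lower (edgeR, adjusted p under 0.05), where 42.0% and 31.9% of all rows tested were, 73.8% either way. Their median was higher in kidney by 0.55 on the log2 scale, against 0.07 over all rows. Among the 455 members that met the ratio in both tissues, 414 were tested, of which 242 were higher and 54 lower. Without liver ZT0 replicate 1 the counts over the set were 354 and 71. Members whose TS reads passed the filter are the better covered ones and not the whole set. TS reads are also part of the rule, and a member could pass the filter through the tissue where its TS reads were high. These TS counts are therefore a description.

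The tissue differences of members were set beside those of the neighbours past their 3′ end. Among 242 members with a tail neighbour within 10 kb where both the member's NTS and the neighbour's TS reads passed the test, 56 pairs were both higher in kidney and 111 both lower, while 14 had the member higher and the neighbour lower and 61 the reverse. The direction was the same in 167 of the 242 pairs (69.0%), and in 1571 of 2081 such pairs of comparison rows (75.5%). Among members at the ratio in both tissues it was the same in 123 of 187 (65.8%), and without liver ZT0 replicate 1 in 163 of 238 (68.5%). Pearson's r between the log2 differences was 0.69 over 400 pairs (Spearman's rho 0.54), and 62.5% of these had the same sign. The 3757 pairs of comparison rows within 10 kb gave an r of 0.56, a rho of 0.49 and 66.7% of the same sign. Under 1 kb apart, the 126 member pairs had an r of 0.88, a rho of 0.55 and 61.1% of the same sign, and the 1002 comparison pairs 0.73, 0.67 and 70.4%. At this distance rho and the share of the same sign were lower in members than in comparison rows, and r was higher. At 50 kb or more r was 0.21 over 66 member pairs and 0.13 over 5704 comparison pairs. Within 10 kb r was 0.48 over the 322 pairs of members at the ratio in both tissues, and 0.69 over 400 pairs without liver ZT0 replicate 1. Past the 5′ end r was 0.43 over 119 member pairs within 10 kb, with a rho of 0.23 and 51.3% of the same sign. The 2981 comparison pairs there gave 0.40, 0.27 and 57.3%. All pairs of such a set come from the same 24 libraries, and the pairs are not independent samples, so these are descriptions.

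**Figure D3:**
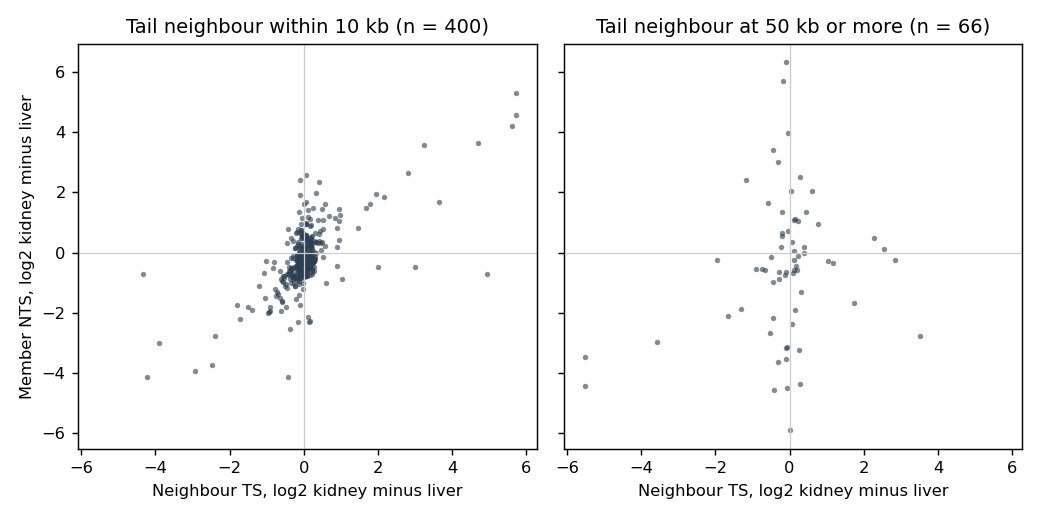
Log2 difference, kidney minus liver, of each member's NTS reads (y axis) and of its tail neighbour's TS reads (x axis); each point is 1 member, with neighbours within 10 kb on the left and at 50 kb or more on the right. The 400 pairs on the left have r = 0.69 and the 66 pairs on the right r = 0.21.

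Some pairs differed in the same direction. Ccdc153 NTS reads were higher in kidney by 3.56 on the log2 scale, and Pdzd3, a scaffold protein of transport epithelia 5 bp past its tail, had TS reads higher by 3.24. Pdzd3 had 14.1 to 23.0 TS CPM in kidney and 1.14 to 2.52 in liver. One B3gat1 row was higher by 5.31, and Glb1l2 at 1705 bp by 5.72. G6pc2, a glucose-6-phosphatase of pancreatic islets, was lower in kidney by 4.47, and Abcb11, the bile salt export pump of hepatocytes, 10288 bp past it, was lower by 5.08. Abcb11 had 128 to 200 TS CPM in liver and 3.31 to 10.6 in kidney. The B3gat1 row met the ratio in kidney only and G6pc2 in liver only. Both could therefore enter through the tissue where their NTS reads were high, and their differences are a description. Sftpd was lower by 4.93, and Mbl1, a mannose-binding lectin made in liver, 13252 bp away, by 3.89. Other members differed where their neighbour hardly did, among them 2 that met the ratio in liver only. Gpx5 was lower in kidney by 5.90 while Trim27 differed by 0.02, and Afp, the fetal serum protein alpha-fetoprotein, was lower by 4.49 while Rassf6, 94168 bp away, differed by -0.06. Among the 242 called pairs within 10 kb, 167 had the same direction, and others were opposite. Heatr9 was lower in kidney by 0.66 and Taf15, 4938 bp away, higher by 0.21. Plekhb1 was lower by 0.59 and Rab6a, 2627 bp away, higher by 0.23. Differences of over 2 on the log2 scale either way were found in 72 of the 614 members (11.7%) and in 4.44% of the 14210 comparison rows tested. They came to 22 of the 417 members with a tail neighbour within 10 kb, 7 of the 31 mostly inside a RefSeq gene of the other strand, 4 of the 26 with a smaller overlap, 3 of the 12 with only a head-to-head row and 36 of the 128 with none of these. Most of the 72 were members that met the ratio in only 1 tissue, 55 of 159, and so could enter through the tissue where NTS reads were high. Among the 455 that met it in both there were 17 (3.74%), 8 of the 337 with a tail neighbour within 10 kb and 9 of the other 118.

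The rule used the strand ratio, so its difference between tissues is given as a description. The TS to NTS ratio was higher in kidney for 308 members and lower for 106 (edgeR, strand by tissue term with the library as a block, adjusted p under 0.05), where 22.2% and 35.9% of the 20187 rows tested were, 58.1% either way. The median change was 0.45 on the log2 scale in members and -0.14 over all rows. Among the 455 at the ratio in both tissues the counts were 224 and 46, with a median of 0.44. Without liver ZT0 replicate 1 the counts over the set were 313 and 104. NTS reads fell below TS reads in the kidney sum for 14 members and in the liver sum for 13.

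The 12 members named for this ratio were each under the threshold in 1 tissue and entered through the other. Gpx5 had the largest difference of those higher in kidney, with a log2 TS to NTS ratio of -0.71 in kidney and -6.27 in liver. Gm5122 had -0.10 and -5.19, Rgr -0.70 and -5.74, and Afp 0.59 and -3.60. Afp, which adult liver makes in only small amounts, had 164 to 346 NTS CPM in liver (median 210) and 5.25 to 22.4 in kidney (median 8.89), with no overlap. Its TS level was 2.69 ± 0.558 in kidney and 2.62 ± 0.706 in liver CPM (SD, n = 12 each). Pgam2, the muscle phosphoglycerate mutase, was the opposite case: its NTS level was 46.8 ± 6.99 in kidney and 46.9 ± 5.06 in liver, while its TS level was 6.21 ± 0.961 and 0.292 ± 0.115. G6pc2 completed the 6, with 0.59 and -3.49. Among those lower in kidney, Sebox, a homeobox gene of the oocyte, had -4.71 in kidney and -0.48 in liver. Its NTS level was 36.8 ± 5.63 in kidney and 55.1 ± 9.81 in liver, and its TS level 0.224 ± 0.122 and 5.57 ± 1.03, with no overlap of the TS ranges. Hrnr had -3.28 and 0.84, 1700003P14Rik -3.81 and -0.23, 1700047M11Rik -4.05 and -0.46, 1700007F19Rik -2.83 and 0.56, and the B3gat1 row -3.79 and -0.41.

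Time of day moved the NTS reads of a minority. A 24 h rhythm was called for 54 of 610 members tested in kidney and 55 of 606 in liver (edgeR, cosine and sine terms together, adjusted p under 0.05), where 2.21% and 3.71% of all rows tested were. Of these, 6 were called in both tissues. The median member had 2690.5 pooled NTS reads and the median comparison row 1278. The part of this difference in reads in the called shares was not tested. In kidney, 49 of the 54 peaked from 16 to 24 h and 3 from 4 to 12 h. In liver 20 peaked from 16 to 24 h, 27 from 4 to 12 h, 5 from 12 to 16 h and 3 from 0 to 4 h. Neither peak hours nor calls in both tissues were counted over all rows. The peak hours here and below are a description and not shown to be particular to the set. A replicate block raised the kidney count to 186, which held all 54, and 169 of the 186 peaked from 16 to 24 h; over all rows tested, the block raised the called share to 7.74%. In liver the block gave 73, with 31 peaking from 16 to 24 h, and 4.85% of all rows. The kidney count moved by over 1.5 times with most libraries left out. It was 13 and 18 without ZT8 replicates 2 and 1, 20 and 32 without ZT20 replicates 1 and 2, 22 and 33 without ZT16 replicates 1 and 2, and 31 without ZT4 replicate 2. It was 91 without ZT4 replicate 1, 92 without ZT12 replicate 1 and 134 without ZT0 replicate 2, and 28 with 1 library size for both strands. In liver the count was 34 without ZT8 replicate 2 and 88 without ZT0 replicate 1. The 88 held all 55, and 38 of them peaked from 16 to 24 h and 31 from 4 to 12 h. Over all rows tested, that fit called 5.67%, against 3.71% with all liver libraries. Shares over all rows are not given here for the other libraries left out or for 1 library size. Those counts are not a result about the members.

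The strand make-up of the libraries also varied with time. NTS reads made up 14.8% and 16.4% of reads in genes in the ZT8 kidney libraries and 12.0% and 13.5% at ZT20, for replicates 1 and 2, and 12.5% and 13.9% in liver at ZT8 and 11.02% and 12.3% at ZT20. In kidney the members' share of all NTS reads ran the other way, 4.41% and 3.85% at ZT8 and 5.20% and 4.83% at ZT20. In liver the members' share was 5.59% and 5.22% at ZT8 and 5.63% and 5.21% at ZT20. The part of these shifts in the rhythms was not tested.

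**Figure D4:**
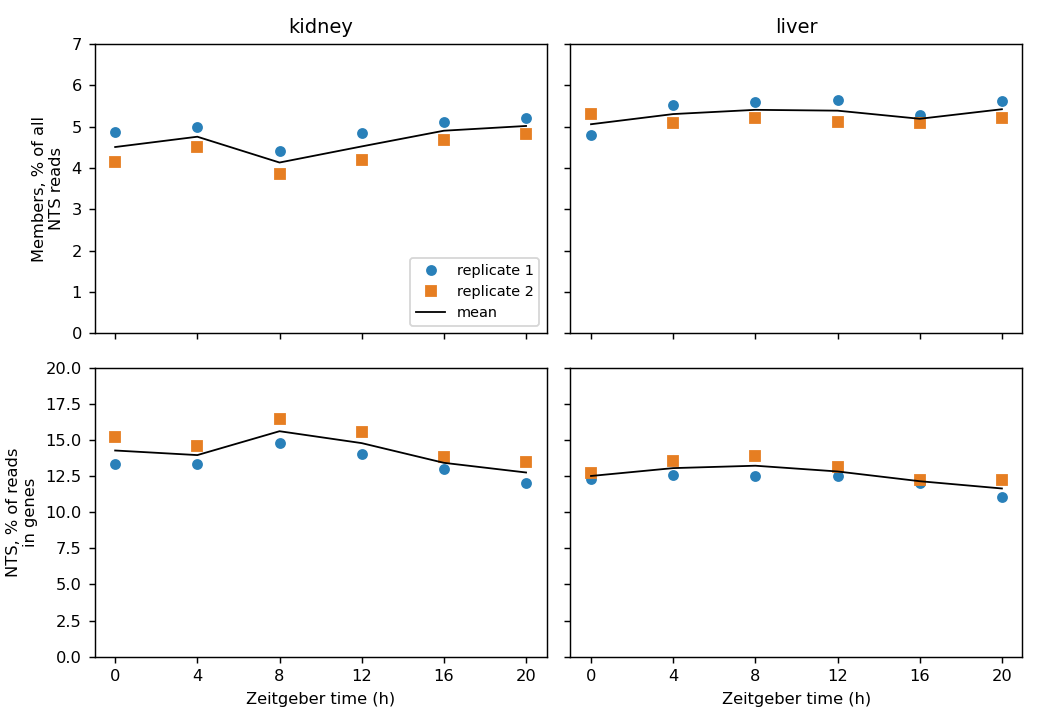
Members' share of all NTS reads (top, %) and the NTS share of all reads in genes (bottom, %) by zeitgeber time in h, for kidney (left) and liver (right); points are libraries, marked by replicate, and lines the mean of 2. In kidney the members' share is lowest at ZT8, 3.85% and 4.41%, where the NTS share is highest, 14.8% and 16.4%.

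The strongest shared rhythm was that of Uts2, whose tail neighbour is Per3, a period gene of the circadian clock. Uts2 NTS CPM in liver were 24.7 and 23.7 at ZT0, 31.0 and 30.2 at ZT4, 149 and 142 at ZT8, 168 and 142 at ZT12, 98.9 and 96.0 at ZT16 and 64.8 and 60.7 at ZT20, for replicates 1 and 2. All libraries of ZT8 to ZT16 lay above all others. The fitted log2 amplitude was 1.32, with a peak at 12.1 h (edgeR, adjusted p = 9.9e-08). Per3 TS CPM in liver were 55.0 and 41.4 at ZT0, 51.4 and 65.2 at ZT4, 152 and 142 at ZT8, 145 and 139 at ZT12, 127 and 120 at ZT16 and 89.9 and 92.5 at ZT20. Their fitted peak was at 12.5 h with an amplitude of 0.82. In kidney Uts2 rose from 34.4 and 28.7 at ZT0 to 100.3 and 69.0 at ZT16, its fit giving an amplitude of 0.65 peaking at 13.5 h (edgeR, adjusted p = 5.4e-04), while the Per3 fit gave 0.50 and 11.3 h. The 2 genes overlap in RefSeq, as given above.

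**Figure D5:**
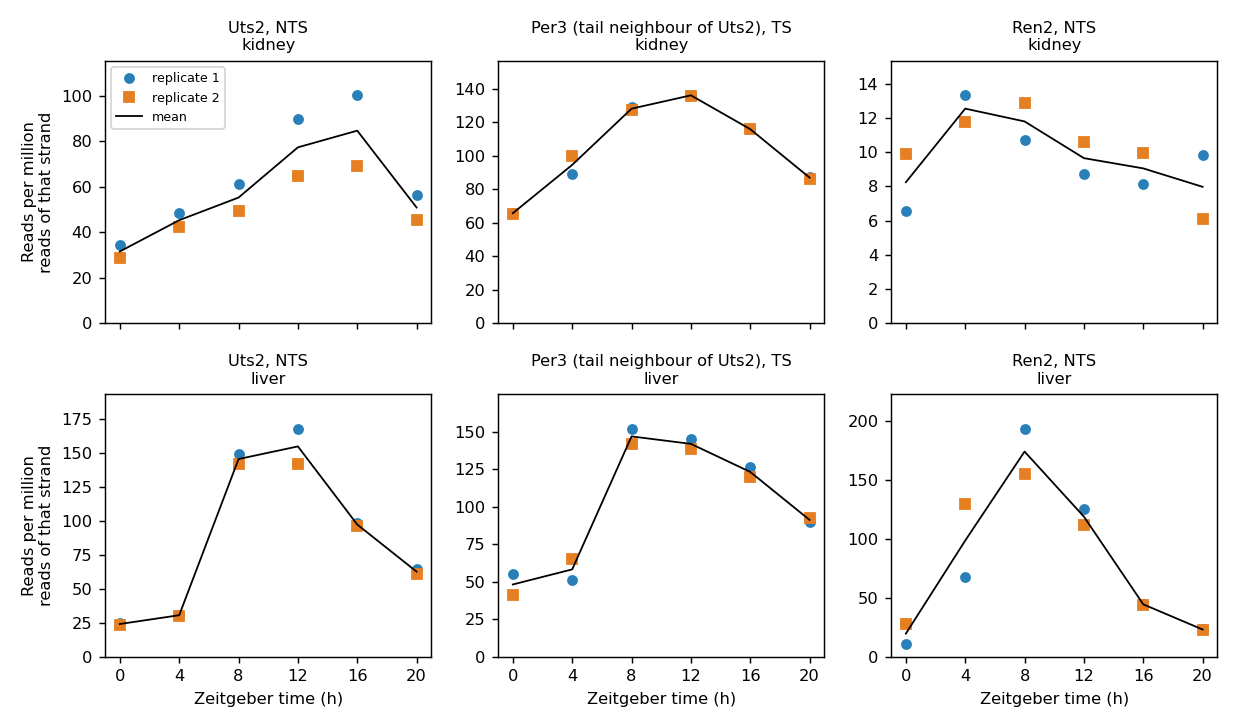
CPM of the strand counted (y axis) by zeitgeber time in h for Uts2 NTS, Per3 TS and Ren2 NTS in kidney (top) and liver (bottom); circles and squares are replicates 1 and 2, and lines the mean of 2. Uts2 and Per3 are both highest from ZT8 to ZT16 in liver, and Ren2 is highest at ZT8 in liver, at 194 and 155.

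The median log2 amplitude of called members was 0.440 in kidney and 0.438 in liver, but the highest amplitudes named here were in liver. The row labelled with the renin gene symbol Ren2 shares nearly all its reads with an unnamed row of the same strand. Which renin gene the reads come from cannot be told from this label. In liver the row had 11.2 and 28.2 NTS CPM at ZT0, 67.5 and 129.99 at ZT4, and 194 and 155 at ZT8. It had 126 and 112 at ZT12, 45.1 and 44.1 at ZT16 and 23.3 and 23.1 at ZT20. Its log2 amplitude was 1.59 with a peak at 8.72 h (edgeR, adjusted p = 1.5e-09), and every liver library from ZT4 to ZT12 lay above those of the other times. In kidney it stayed between 6.10 and 13.3 and was not called. Klf17, a transcription factor of the early embryo, peaked at 23.3 h with an amplitude of 1.28, and Spata3, a gene of spermatogenesis, at 21.1 h with 1.14. Gjb6, which encodes the gap junction protein connexin 30, peaked at 8.35 h with 1.21, and Ccdc190 at 8.80 h with 0.90. In the kidney sum Ren2, Klf17 and Spata3 had NTS to TS ratios of 1.22, 0.957 and 1.34, under the threshold. They entered through liver, so their difference between tissues is a description. The nearest tail neighbours of Ren2, Klf17, Spata3 and Gjb6 lay 21980, 82361, 69078 and 104318 bp away. Ccdc190 had Hsd17b7, an enzyme of cholesterol synthesis, 14883 bp past its tail, whose TS reads peaked at 8.41 h with an amplitude of 0.28. Without ZT0 replicate 1 all 6 named liver rhythms, Uts2 included, were called (edgeR, adjusted p of 8.2e-04 or lower), with amplitudes of 0.85 to 1.49.

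In kidney the 6 largest called amplitudes after the same rule were those of Uts2, Rwdd2a at 0.61, Pdia2, a pancreatic protein disulfide isomerase, at 0.60, 1700003P14Rik at 0.59, Gm6592 at 0.58 and Ccdc74a at 0.58. Apart from Uts2 they peaked between 18.6 and 19.6 h. The NTS to TS ratio was under the threshold for Rwdd2a in the kidney sum, at 1.49. It was also under it for 1700003P14Rik in the liver sum, at 1.175. Ccdc74a had Med15, a subunit of the Mediator complex, 469 bp past its tail, with a TS peak at 19.2 h against 18.9 h. The tail neighbours of 3 others were not called on the TS in kidney. These were Axin1, 187 bp past Pdia2, Me1, 6463 bp past Rwdd2a, and Gm10732, 14780 bp past 1700003P14Rik (edgeR, adjusted p = 0.25, 0.13 and 0.89). Gm6592, with an edgeR adjusted p of 0.049, lost its call with 1 library size for both strands and without any of 7 kidney libraries, ZT8, ZT16 and ZT20 replicates 1 and 2 and ZT12 replicate 2, and was at 0.35 without ZT8 replicate 2.

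Rhythms of the neighbours' TS reads were fitted after the members' list had been seen. In kidney, 43 called members had a tail neighbour within 10 kb, 14 of these neighbours were called on the TS, and 13 of the 14 pairs peaked within 3 h of each other, with a median difference of 0.723 h. In liver the numbers were 32, 14 and 14, with a median difference of 0.791 h. Over all rows tested, TS rhythms were called in 14.3% in kidney and 14.9% in liver. Among neighbours within 10 kb of members that were tested but not called, 69 of 358 were called in kidney (19.3%) and 61 of 367 in liver (16.6%). Without ZT0 replicate 1 the liver numbers were 51, 24 and 21, with a median difference of 0.919 h. With the replicate block, the kidney numbers were 143 members, 53 called neighbours and 48 pairs within 3 h. That block also raised the TS rhythms over all rows to 25.2% in kidney and 16.7% in liver. Of neighbours whose pair could be tested, 53 of 140 were then called in kidney where the member was (37.9%) and 80 of 260 where it was not (30.8%). In liver it was 18 of 42 (42.9%) and 61 of 357 (17.1%). A difference between these shares was not tested. Peak agreement was not computed for other pairs of rows, and 49 of the 54 called kidney members peaked from 16 to 24 h. The pairs within 3 h are therefore a description.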

How the data were processed

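XR-seq was read from tables of 12 kidney and 12 liver libraries. The deposited values are whole-number counts of reads per gene row and strand, made by the authors on mm10 per the submitters' processing notes. No aligner or counter is named in the labels or headers. The RPKM values that the authors deposited beside the counts were not tested. Starts in the tables are counted from 0, so 1 was added. Rows with no symbol held 2.76% of TS and 2.89% of NTS reads; they were left out of library sizes and tests, but count in the depths, in shares of all NTS reads and as opposite-strand neighbours. For flanks, the authors' drawn-down kidney counts between genes were used.

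Counts were tested with edgeR 4.0.16 in R 4.3.3 (quasi-likelihood, TMM scaling, filterByExpr, Benjamini-Hochberg over all rows tested, threshold 0.05). The tissue contrast averaged 6 times per tissue, the ratio test used strand by tissue with the library as a block, and rhythms used cosine and sine of 24 h. Code was tested on simulated data. Alternatives were DESeq2 1.42.0, its size factors, no filter, 1 library size for both strands, a replicate block, and each library left out. Same-numbered kidney libraries deviated together, with all 15 NTS correlations between times from 0.226 to 0.412, and so count as paired. This came from the data, not the labels. The main rhythm fits left this pairing out, and only those with the replicate block took it in. Liver values were -0.077 to 0.250, and kidney with liver 0.019 to 0.262.

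Named members were the 12 of largest ratio, the 8 with most reads, up to 6 called each way by tissue for NTS and for the ratio, up to 6 per tissue by amplitude, the 6 smallest tail gaps and the rows at the threshold. A few items that this rule names are not reported here. Rptn was added after its values were seen, as were the TS rhythms, the counts of members at the ratio in both tissues, and the neighbour pairs and liver rhythm details without liver ZT0 replicate 1. Members and lists were chosen with earlier results of these data known. Counting intervals were not used, and the tests cover the spread between libraries.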

Additional observations from a re-analysis of the deposited data

Results flagged for a closer look

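The TS to NTS ratio differed between kidney and liver for 414 members by edgeR's strand by tissue test, and each value here is the log2 difference, kidney minus liver. The rule used this ratio, and the 12 members named for it were under the threshold in 1 tissue and entered through the other, so their differences support nothing and are values only. The ratio was higher in kidney for Gpx5 by 5.55, Gm5122 by 5.08, Rgr by 5.04, Afp by 4.19, Pgam2 by 4.17 and G6pc2 by 4.09. Sebox stood at -4.23, Hrnr at -4.13, 1700003P14Rik at -3.59, 1700047M11Rik at -3.58, 1700007F19Rik at -3.39 and B3gat1 at -3.38.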

How the results depend on the processing

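With no opposite-strand row allowed within 5 kb, 261 members remained and 28.7% had a tail neighbour within 10 kb; with none within 10 kb there were 176 members and 0 such neighbours by construction. The other settings gave 413 to 808 members. Kidney NTS rhythms numbered 28 with 1 library size for both strands, 157 with no filter, 186 with a replicate block, and 13 to 134 when 1 library was left out; liver rhythms numbered 111 with no filter and 34 to 88 when 1 library was left out. With the replicate block, kidney members with a tail neighbour numbered 143 in place of 43, their called neighbours 53 in place of 14, pairs within 3 h 48 in place of 13 and peaks from 16 to 24 h 169 in place of 49; liver peaks from 16 to 24 h numbered 31 in place of 20. The tissue counts and the liver count of 73 stayed within 1.5 times. Shares over all rows are not given for the rhythm counts with no filter, with 1 library size or with most libraries left out. Those counts are not a result about the members. With 1 library size for both strands the tissue difference of NTS reads turned to 0.17 for Cst7, 0.030 for Igf2bp3 and 0.19 for Pgam2, and Tm4sf20, Uts2, Megf11 and Foxh1 lost their calls; the cause was not tested. Of 50 named members called for that difference, 45 kept the call under every alternative run. Few TS reads limit the ratios of the most skewed members.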
